A study of Mus musculus with 8 samples.

Results

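The 92 genes described here encode the nuclear part of the mitochondrial respiratory chain and of ATP synthase. They were all genes on the array whose annotated symbol starts with Nduf, Uqcr, Atp5, Cox4, Cox5, Cox6, Cox7 or Cox8, together with Sdha, Sdhb, Sdhc, Sdhd, Cyc1 and Cycs, out of 18193 gene symbols. Their RNA was measured in mouse CD4 T cells of 4 genotypes, cultured either with TGF-b or without it, on 8 single-colour Affymetrix arrays, 1 for each condition. Every member was read from 1 probe set, the brightest of its single-gene probe sets over the WT, Smad2KO and Smad3KO arrays.

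The groups were wild type (WT), Smad2del/del made in T cells only (Smad2KO), Smad3-/- (Smad3KO), and Smad2del/del with Smad3+/- (Smad2KO_Smad3het), the last standing in for cells that lack both genes. All mice were labelled C57BL/6J; neither their ages nor the Cre line is stated in the labels. Naive splenic CD4 T cells (CD25-, CD44 low, CD62L high, over 98% pure) from each were cultured for 24 h. They were stimulated through CD3e and CD28 (1 ug/ml of each antibody), with IFN-g and IL-4 blocked (10 ug/ml of each antibody) and 10 ng/ml of IL-2 present in all cultures, and the TGF-b cultures received 2 ng/ml. No group had a second array, so no value below has an SD. Nothing in the labels says that cultures came from separate animals, so a p-value here reflects only how these cultures differed, which may be technical, and true differences between genotypes widen that spread.

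The respiratory chain passes electrons from NADH (complex I) and from succinate (complex II) through coenzyme Q to complex III, then by cytochrome c to complex IV, which reduces oxygen. Complexes I, III and IV pump protons as they do so, and ATP synthase (complex V) uses the returning protons to make ATP. Naive T cells that are activated are known to enlarge their mitochondria and raise respiration as well as glycolysis. Complexes I, III, IV and V also hold subunits encoded by mitochondrial DNA, which are not analysed here.

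Promoters are shown for the 4 members whose mean TGF-b response passed the test and for Cox6a1, a complex IV subunit whose promoter holds 2 NRF1-type matches. Each runs from 250 bases before to 50 bases after the RefSeq transcription start of assembly GRCm38.p6, printed 5′ to 3′. Capitals mark matches to GCGCA and GCGC with any base between them, a form of the site of NRF1, the factor best known for driving respiratory chain genes, and to CGGAAG, the core bound by ETS factors such as GABP.
Ndufb1: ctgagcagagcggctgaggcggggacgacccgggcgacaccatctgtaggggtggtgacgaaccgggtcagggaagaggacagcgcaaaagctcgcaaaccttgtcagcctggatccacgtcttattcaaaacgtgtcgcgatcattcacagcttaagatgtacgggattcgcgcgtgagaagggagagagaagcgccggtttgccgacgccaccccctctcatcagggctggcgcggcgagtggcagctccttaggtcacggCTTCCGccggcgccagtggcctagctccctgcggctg
Ndufv3: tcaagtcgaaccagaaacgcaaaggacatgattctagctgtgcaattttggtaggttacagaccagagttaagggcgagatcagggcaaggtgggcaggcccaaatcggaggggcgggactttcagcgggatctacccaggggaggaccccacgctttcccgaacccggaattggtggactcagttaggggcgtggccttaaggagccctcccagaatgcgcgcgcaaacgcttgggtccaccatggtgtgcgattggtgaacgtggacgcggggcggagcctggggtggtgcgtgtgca
Atp5h: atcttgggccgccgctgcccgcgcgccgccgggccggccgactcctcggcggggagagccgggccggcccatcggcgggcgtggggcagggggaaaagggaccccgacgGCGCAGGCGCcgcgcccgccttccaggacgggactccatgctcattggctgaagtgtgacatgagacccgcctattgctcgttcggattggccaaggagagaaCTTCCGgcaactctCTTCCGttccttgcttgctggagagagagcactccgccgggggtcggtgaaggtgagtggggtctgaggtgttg
Ndufaf4: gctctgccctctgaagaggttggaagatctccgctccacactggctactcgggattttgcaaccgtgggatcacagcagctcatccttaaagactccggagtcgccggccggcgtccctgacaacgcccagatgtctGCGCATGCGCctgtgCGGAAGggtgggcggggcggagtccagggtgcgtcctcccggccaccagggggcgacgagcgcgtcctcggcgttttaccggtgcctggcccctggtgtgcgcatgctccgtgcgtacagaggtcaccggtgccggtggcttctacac
Cox6a1: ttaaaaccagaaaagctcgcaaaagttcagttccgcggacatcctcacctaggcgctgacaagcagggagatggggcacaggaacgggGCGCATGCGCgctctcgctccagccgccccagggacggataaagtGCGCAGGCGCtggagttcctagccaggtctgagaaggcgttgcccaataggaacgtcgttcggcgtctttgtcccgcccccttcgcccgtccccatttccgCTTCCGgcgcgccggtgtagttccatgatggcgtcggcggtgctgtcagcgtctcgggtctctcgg
They lie at chr12:101975689-101975988 on the minus strand (Ndufb1), chr17:31519865-31520164 on the plus strand (Ndufv3), chr11:115419870-115420169 on the minus strand (Atp5h), chr4:24897833-24898132 on the plus strand (Ndufaf4) and chr5:115348909-115349208 on the minus strand (Cox6a1). Ndufaf4 had GCGCATGCGC starting 113 bases before the start, followed by CGGAAG at 98 bases before it. Atp5h had GCGCAGGCGC at 141 bases before the start and the reverse complement CTTCCG at 38 and 24 bases before it. Cox6a1 held both GCGCATGCGC, at 162 bases before the start, and GCGCAGGCGC, at 117, with CTTCCG at 16 bases before it. Ndufb1 had a single CTTCCG, 13 bases past the start, and Ndufv3 had neither motif in this window.

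Over the 75 members with a promoter in the RefSeq table, 17 (22.7%) held the NRF1 letters on either strand, against 5.19% of 27025 genes with a promoter there. CGGAAG was held by 35 of them (46.7%) against 18.8%, and AAGATGGCG, a core of the YY1 site, by 7 (9.33%) against 1.64%. The letters GTCTAGAC, a palindromic Smad-binding element, were in 0 of the 75 and in 0.248% of all genes. Both strands were searched for each motif, matches of different motifs could overlap, and a gene was counted once per motif. Among the 70 of these members that were bright enough to test, WT cells had median log2 TGF-b ratios of 0.23 in the 16 with the NRF1 letters and 0.18 in the other 54. For CGGAAG the medians were 0.20 with and 0.19 without, and for AAGATGGCG 0.10 in 7 genes with and 0.21 without. The AAGATGGCG split was the other way in Smad2KO, at 0.06 with and 0.04 without, and that of CGGAAG in Smad3KO, at 0.00564 and 0.0146. These splits describe the members and were not tested.

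Signals are linear probe set intensities, with each array scaled to the same 2% trimmed mean. Among the 6 WT, Smad2KO and Smad3KO arrays the factors ran from 0.847 to 1.25, the highest belonging to WT with TGF-b, and rank correlations across probe sets from 0.907 to 0.928. The 2 Smad2KO_Smad3het arrays needed factors of 2.31 and 2.59, had scaled medians of 103 and 106 against 30.5 to 35.4, and correlated with the others at 0.660 to 0.693, so they are given apart. In WT the 3 probe sets of 18S ribosomal RNA were at 3124, 2594 and 3990.0 without TGF-b but at 70.1, 121 and 182 with it, and 710 to 2525 on the Smad3KO arrays against 34.7 to 225 on those of Smad2KO. The ratio of 3′ to 5′ signal of Gapdh lay between 0.785 and 0.835 on the 6 arrays and at 0.891 and 0.900 on the Smad2KO_Smad3het arrays. All 8 CD4 T cell markers with a probe set were bright on the 6 arrays, summing to 28564 to 32217, and 0 of 6 B cell, 0 of 3 NK cell and 2 of 9 myeloid markers reached the level needed for testing. The B cell markers summed to 80.2 to 123 on the 6 arrays and to 764 and 1132 on the Smad2KO_Smad3het arrays, and the myeloid markers to 155 to 272 and to 3173 and 2759.5. Both CD8 T cell markers, Cd8a and Cd8b1, did reach it, at up to 93.3 and 92.2, and summed to 67.7 to 159.6 on the 6 arrays and to 1223 and 1569.7 on the Smad2KO_Smad3het arrays. In bulk RNA, fewer cells of a type and less RNA per cell cannot be told apart.

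Of the 92 genes, 84 reached 64.6 on at least 1 of the 6 arrays, which is 2 times the floor of 32.3 set at the median signal, and these 84 were among the 9453 genes tested. They comprised 34 complex I genes, 8 complex I assembly factors (symbols starting with Ndufaf), 4 of complex II, 9 of complex III, cytochrome c, 11 of complex IV and 17 of complex V. Of the 8 that stayed below, 6 were complex IV genes: Cox4i2, Cox6a2, Cox6b2, Cox7a1, Cox7b2 and Cox8b. These are forms known from lung, muscle, heart or testis. The others were Ndufa4l2, a hypoxia-induced relative of Ndufa4, and Ndufb4, whose remaining probe sets match several genes and were left out.

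The forms of complex IV subunits found in most tissues were bright. Cox4i1 ranged over the 6 arrays from 5839 to 7240.2, and its lung form Cox4i2 from 27.7 to 49.6. Cox6a1 ranged from 7912 to 10207 and its heart and muscle form Cox6a2 from 8.44 to 56.9. Cox6b1 lay at 6808 to 8352 and the testis form Cox6b2 at 19.3 to 36.1. Thus each of these ubiquitous forms was above the testing level on all 6 arrays and each tissue form below it on all 6. Cox7a2 read 8144 to 10301, against 1.71 to 38.9 for the muscle form Cox7a1. Cox8a, the general form of the smallest subunit, read 2789.5 to 3509, and Cox8b, its muscle form, 2.47 to 30.7. Cox8c, known from testis, read 105 to 134 and Cox7c 124 to 165, not far above the testing level. Signals of different probe sets are not on one scale, so each is read only against the testing level. The 3 genes for subunit c of ATP synthase, which encode the same mature protein, were all bright: Atp5g1 at 3642 to 4353, Atp5g2 at 4609 to 5654 and Atp5g3 at 8329 to 10494.

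TGF-b changed the respiratory chain genes little. No member moved 2-fold in WT, Smad2KO or Smad3KO, where 7.23%, 4.5% and 2.59% of the 9453 genes tested did. Averaged over the 3 genotypes, with genotype as a block, 3 members rose (Ndufb1, Ndufv3 and Atp5h) and 1 fell (Ndufaf4), 4.76% of the 84, against 12.8% of all genes tested (7.16% higher and 5.61% lower). The median log2 response of the members was 0.07, that of all genes -0.02, and 65 of the 84 members (77.4%) lay above 0, as did 46.5% of all genes. With arrays scaled to the same median the split of calls was 3 higher and 0 lower. Leaving out the WT pair gave 2 calls and a median of 0.03, leaving out the Smad2KO pair gave 2 calls, leaving out the Smad3KO pair gave a median of 0.11, and a limma fit with neither trend nor robust gave 0. In the fit as reported 11 members (13.1%) had an unadjusted p under 0.05, against 28.1% of all genes.

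**Figure D1:**
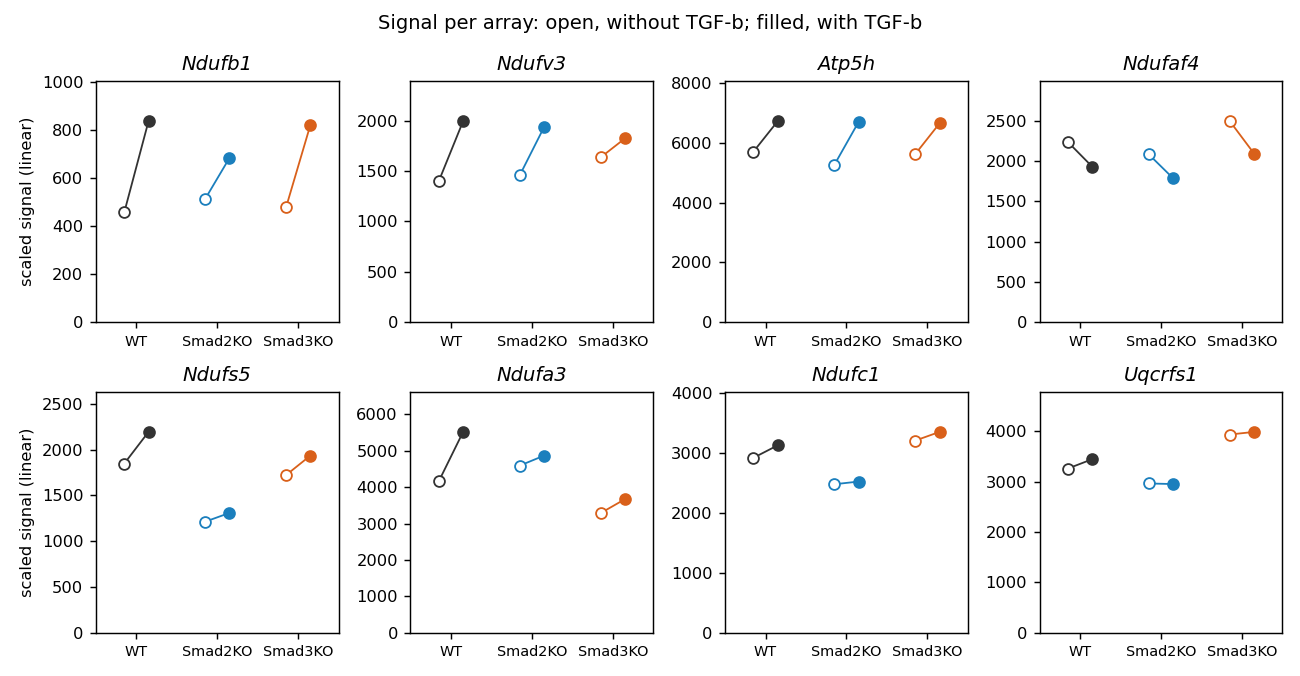
Scaled signal (linear scale from 0) of the 8 members called in a test, on the WT, Smad2KO and Smad3KO arrays. Each point is 1 array and a line joins the arrays of a genotype; Ndufb1, Ndufv3 and Atp5h lie higher with TGF-b in all 3 genotypes, Ndufaf4 lower in all 3, and Ndufs5 is lowest in Smad2KO.

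Ndufb1, a small accessory subunit of the membrane arm of complex I, gave the largest response of any member. From the array without TGF-b to the array with it, as in all such pairs below, its signal went from 456 to 836 in WT, from 513 to 683 in Smad2KO and from 478 to 821 in Smad3KO. The 3 arrays with TGF-b all lay above the 3 without. The mean log2 response was 0.69 (SE 0.106, limma adjusted p = 0.00139), a 1.61-fold rise, and the ratios by genotype were 0.87, 0.41 and 0.78. It rests on a single probe set.

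Ndufv3, an accessory subunit of the part of complex I that binds NADH, went from 1401 to 1996 in WT, from 1458 to 1936 in Smad2KO and from 1637 to 1825 in Smad3KO. Again every array with TGF-b was brighter than every array without. The mean response was 0.36 (SE 0.0831, limma adjusted p = 0.015), with the smallest ratio in Smad3KO, 0.16, against 0.51 in WT and 0.41 in Smad2KO. A test of Smad3KO against the mean of the other 2 responses did not pass (-0.30, SE 0.154, limma adjusted p = 0.627). Without the WT pair the Ndufv3 response was 0.28 and was not called (limma adjusted p = 0.146).

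Atp5h, subunit d of the outer stalk that holds the catalytic head of ATP synthase still, went from 5709 to 6731 in WT, from 5267 to 6707 in Smad2KO and from 5629.7 to 6658 in Smad3KO. Arrays with TGF-b again did not overlap those without. The mean response was 0.28 (SE 0.0661, limma adjusted p = 0.0179), and the ratios were close to each other at 0.24, 0.35 and 0.24. A second bright Atp5h probe set was less even, at 0.35, 0.11 and 0.02 in WT, Smad2KO and Smad3KO. Without the Smad2KO pair the chosen probe set gave 0.24 and was not called (limma adjusted p = 0.249).

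Ndufaf4, an assembly factor needed to build complex I, went from 2234 to 1928 in WT, from 2080.1 to 1784 in Smad2KO and from 2493 to 2091 in Smad3KO. It was dimmer with TGF-b in each genotype, though its signal in Smad3KO with TGF-b lay above that in Smad2KO without. The mean response was -0.23 (SE 0.0684, limma adjusted p = 0.0483), just past the threshold, with ratios of -0.21, -0.22 and -0.25. Over the 13 alternative settings it was called in 2, with values from -0.24 to -0.21 and adjusted p from 0.0380 to 0.233. Its other bright probe set stood at -0.34, -0.21 and -0.05 in WT, Smad2KO and Smad3KO.

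None of the remaining assembly factors passed. Ndufaf2, which helps to complete complex I, went from 797 to 698 in WT, from 962 to 782 in Smad2KO and from 920.3 to 749 in Smad3KO, with a mean response of -0.26 (SE 0.0841, limma adjusted p = 0.0632). Ndufaf5 and Ndufaf3 had the highest means of the 8. Ndufaf5 had ratios of -0.25, -0.000728 and 0.31 and Ndufaf3 of 0.45, 0.17 and 0.14, with adjusted p of 0.942 and 0.186. In all, 6 of the 8 Ndufaf genes had a mean response below 0, with a median of -0.07, whereas most subunits lay above 0. Of all genes tested 46.5% lay above 0, with a median of -0.02, and the distance of these 8 genes from that share was not tested.

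Among the 34 complex I genes, 29 had a mean response above 0 and the median was 0.07. The 2 lowest were Ndufa5, an accessory subunit of the arm that reaches into the matrix, and Ndufs1, the largest of the iron-sulfur subunits. Ndufa5 went from 2981 to 2758 in WT, from 3187 to 2762 in Smad2KO and from 3456 to 3114 in Smad3KO, a mean of -0.16 (adjusted p = 0.143), and was lower with TGF-b in each genotype, though a second probe set stood at 0.02 in WT. Ndufs1 went from 1676 to 1475 in WT, from 1617 to 1511 in Smad2KO and from 1574 to 1539 in Smad3KO, a mean of -0.10 (adjusted p = 0.389). Ndufa4, counted here by its symbol although its protein is now placed in complex IV, went from 3824 to 4575 in WT, from 3961 to 3955 in Smad2KO and from 4439.9 to 4334 in Smad3KO. The core subunits Ndufs3, Ndufs7, Ndufs8, Ndufv1 and Ndufv2, which carry the electrons or frame their path, had mean responses of 0.01, -0.04, 0.05, 0.12 and 0.08, none of which passed.

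Complex II, succinate dehydrogenase, also belongs to the tricarboxylic acid cycle and has 4 subunits. Sdha, the flavoprotein that oxidises succinate, went from 2691 to 3168 in WT, from 2807 to 3140.0 in Smad2KO and from 3107 to 3306 in Smad3KO, and its mean response of 0.16 did not pass (adjusted p = 0.137). Sdhb, the iron-sulfur subunit, went from 3134 to 4005 in WT, from 3389.7 to 3345 in Smad2KO and from 3732 to 3815 in Smad3KO. The WT array with TGF-b was the brightest for Sdhb, and its ratios were 0.35, -0.02 and 0.03. The membrane anchor Sdhc went from 1803 to 1780.3 in WT, from 1769.8 to 1864 in Smad2KO and from 1687 to 1741 in Smad3KO. The other anchor, Sdhd, went from 1998 to 1877 in WT, from 1846 to 1718 in Smad2KO and from 1731 to 1734 in Smad3KO. On these probe sets both anchors stayed nearer to level than Sdha and Sdhb did in WT, but a second Sdhd probe set stood at -0.60 there. Adjusted p-values of the 4 genes ran from 0.137 to 0.79.

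Complex III had the narrowest range of responses of the proton-pumping complexes, from -0.03 to 0.12 over its 9 genes. Uqcrb, a subunit at the coenzyme Q site, was the highest and went from 10547 to 12958 in WT, from 10586 to 11258 in Smad2KO and from 11699.7 to 11421 in Smad3KO (mean 0.12, adjusted p = 0.345), and a second Uqcrb probe set stood at -0.11 in WT. Uqcrc2, one of the core proteins, went from 3556 to 3817 in WT, from 3584 to 3889 in Smad2KO and from 3876 to 3727 in Smad3KO, a mean of 0.05. Uqcrq and Uqcr10, small accessory subunits, were the lowest, with means of -0.03 and -0.01. Uqcrq went from 3129.6 to 3384 in WT, from 3161 to 2868 in Smad2KO and from 3496 to 3374 in Smad3KO. Uqcr10 went from 2443 to 2712 in WT, from 2507 to 2414 in Smad2KO and from 3073 to 2811 in Smad3KO. On these probe sets both were brighter with TGF-b in WT and dimmer with it in both knockouts, but the other bright Uqcr10 probe sets were dimmer in WT too, at -0.11 and -0.30. Cyc1, cytochrome c1, which hands electrons to cytochrome c, went from 3960.2 to 4054 in WT, from 3898 to 4179 in Smad2KO and from 4333 to 4392 in Smad3KO, a mean of 0.05. Cycs, cytochrome c itself, which also triggers caspases when it leaves mitochondria, went from 10212 to 8800.4 in WT, from 9652 to 9385 in Smad2KO and from 10244 to 9167 in Smad3KO. It was dimmer with TGF-b in each genotype, with a mean of -0.14 (adjusted p = 0.207), and passed under quantile normalization (-0.21, adjusted p = 0.0324). Of its other bright probe sets 1 stood at 0.02 in WT.

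In complex IV, 8 of 11 genes had a mean response above 0, and none of the 11 passed. Cox7a2l was the highest and went from 1752 to 2446 in WT, from 1622 to 2199 in Smad2KO and from 1961 to 1953 in Smad3KO. Signals with TGF-b were higher in WT and Smad2KO and level in Smad3KO, and the mean was 0.30 (SE 0.0968, limma adjusted p = 0.0674). Both other bright probe sets for Cox7a2l gave the same order in WT and Smad3KO, with 0.73 and 0.62 in WT, 0.49 and 0.16 in Smad2KO, and 0.06 and 0.10 in Smad3KO. The Smad3KO response lay 0.47 under the mean of the other 2, a difference that did not pass (SE 0.15, limma adjusted p = 0.299). On the WT and Smad2KO arrays alone, Cox7a2l was at 0.46 and passed (limma adjusted p = 0.000281). That setting leaves out the level pair, which favours a pass, so it says nothing about a difference in Smad3KO. Over the 13 alternative settings Cox7a2l was called in 2.

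General subunits of complex IV had similar ratios. Cox4i1, next to the catalytic core, went from 5839 to 7240.2 in WT, from 6208 to 6544 in Smad2KO and from 6601 to 6860.2 in Smad3KO. Cox6b1, on the intermembrane side, went from 6808 to 8352 in WT, from 6891 to 7255 in Smad2KO and from 7925 to 7968 in Smad3KO. Cox5a and Cox5b, on the matrix side, had log2 ratios in WT, Smad2KO and Smad3KO of 0.21, 0.12 and 0.08 and of 0.26, 0.08 and -0.01. Cox6a1 went from 7912 to 10207 in WT, from 8246 to 8722 in Smad2KO and from 9257 to 9408 in Smad3KO, with ratios of 0.37, 0.08 and 0.02 and a mean of 0.16 (adjusted p = 0.213). For all 5 of these the WT ratio was the highest of the 3. At the low end, Cox8a went from 3152 to 3168 in WT, from 3337 to 2789.5 in Smad2KO and from 3509 to 3225 in Smad3KO, a mean of -0.12, and Cox7c, a small membrane subunit read from a dim probe set, went from 152 to 139 in WT, from 138 to 124 in Smad2KO and from 165 to 134 in Smad3KO, a mean of -0.19. Neither passed (adjusted p = 0.287 and 0.462). Cox7a2, the general form of its subunit, went from 8709.7 to 10301 in WT, from 8144 to 8532 in Smad2KO and from 9998 to 9674 in Smad3KO, and Cox8c went from 131 to 122 in WT, from 134 to 117 in Smad2KO and from 105 to 109 in Smad3KO.

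All 17 ATP synthase genes had a mean response above 0, with a median of 0.12 and a range of 0.04 to 0.28. Besides Atp5h, the highest was Atp5c1, the central shaft subunit gamma, which went from 6342 to 7819 in WT, from 6552 to 7288 in Smad2KO and from 7913 to 8137 in Smad3KO (mean 0.17, adjusted p = 0.156). Atp5a1 and Atp5b, the alpha and beta subunits of the catalytic head, had ratios of 0.12, 0.23 and 0.03 and of 0.01, 0.16 and 0.11, with the largest in Smad2KO. The lowest were Atp5j, coupling factor 6, with a mean of 0.04, and Atp5k, subunit e, with 0.05. Atp5j went from 5532 to 5922 in WT, from 5608 to 5829 in Smad2KO and from 6141 to 6001 in Smad3KO. Atp5k went from 4609.7 to 5096 in WT, from 4559.7 to 4615 in Smad2KO and from 5067 to 5000.4 in Smad3KO. Of the genes for subunit c, which forms the rotating ring, Atp5g1 went from 3642 to 4353 in WT, from 3799.8 to 4029.9 in Smad2KO and from 3898 to 4076 in Smad3KO. Atp5g2 went from 4609 to 5654 in WT, from 4847 to 5077 in Smad2KO and from 4749 to 5098 in Smad3KO. Atp5g3 went from 8329 to 10494 in WT, from 8601 to 9082 in Smad2KO and from 9946 to 10098 in Smad3KO. The WT ratio of Atp5g1, 0.26, stood against 0.29 for Atp5g2 and 0.33 for Atp5g3. A second Atp5g2 probe set stood at -0.88, but it was dim, at 91.5 without TGF-b and 49.7 with it in WT. Atp5md, a small subunit at the dimer interface, went from 2695 to 3639 in WT and from 3517 to 2914 in Smad3KO, ratios of opposite sign.

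By genotype, the members' ratios on the chosen probe sets were highest in WT. Other bright probe sets could differ from these in either direction. For Cox6c another stood at -0.54 in WT against 0.27 on the chosen one, and for Ndufa12 another at -0.52 against 0.20. For Ndufv2 another lay higher, at 0.62 against 0.14. Such differences in WT alone were not counted over the members. In WT 67 of 84 members (79.8%) had a ratio above 0, against 49.3% of all genes tested, and the median ratio was 0.16, a 1.12-fold difference, against -0.01 for all genes. In Smad2KO 50 members (59.5%, against 45%) lay above 0, with a median of 0.04 against -0.03. In Smad3KO 46 (54.8%, against 48.3%) did, with a median of 0.01 against -0.00434. Under the 3 other scalings the WT median ran from 0.14 to 0.22 and the Smad2KO median from 0.02 to 0.06, while the Smad3KO median changed sign, between -0.02 and 0.02. The distance of the WT members' median from that of all genes was 0.17 as reported and 0.16 under quantile normalization. The remaining scalings multiply each array by a constant, so they could hardly change this distance.

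By median the WT shift was largest in complexes IV, V and I. Median ratios in WT were 0.26 for complex IV, 0.25 for complex V, 0.18 for complex I, 0.11 for complex II and 0.10 for complex III, and -0.15 for the assembly factors. In Smad2KO the same medians were 0.07, 0.08, 0.02, 0.03, 0.07 and -0.12. In Smad3KO they were 0.01, 0.04, 6.92e-05, 0.04, -0.03 and -0.07. The subunits thus lay higher in WT than in the knockouts in each of the 5 complexes by median. Gene by gene, the WT ratio minus the mean of the other 2 had medians of 0.17, 0.23 and 0.18 in complexes I, IV and V. It was 0.07 in complex III and 0.04 in complex II, where 2 of 4 genes lay above 0. The median of the 8 Ndufaf genes lay below 0 in all 3 genotypes, with 2, 1 and 3 of them above 0 in WT, Smad2KO and Smad3KO.

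**Figure D2:**
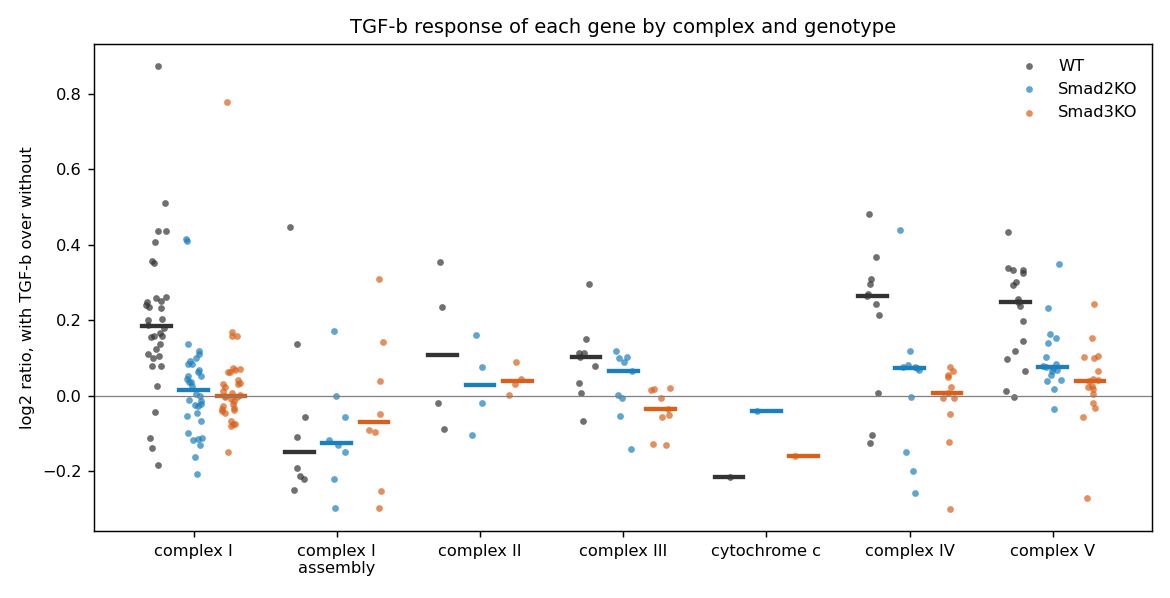
Log2 ratio of signal with TGF-b over without, for each of the 84 tested members (points) by complex and genotype, with bars at the medians. WT medians are highest in complexes IV (0.26) and V (0.25), and those of the complex I assembly factors lie below 0 in all 3 genotypes.

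WT had the highest ratio of the 3 genotypes in 63 of 84 members (75%), against 38.3% of all genes tested. A test of the WT response against the mean of the other 2 called 0 members with limma, at 1 residual degree of freedom, and 0.0212% of all genes (0.0106% higher and 0.0106% lower). At an unadjusted p under 0.05, 18 members (21.4%) stood out, all higher in WT, against 7.43% of all genes. The smallest p belonged to Ndufs8, an iron-sulfur subunit of complex I that went from 3569 to 4554 in WT, from 4027 to 3725 in Smad2KO and from 4765 to 4506 in Smad3KO, a difference of 0.45 (SE 0.105, limma adjusted p = 0.526). Its 5 other bright probe sets had WT ratios from -0.48 to 0.34, the lowest from a dim one that went from 132 to 94.8. Next were Ndufa13 at 0.43 and Ndufb11 at 0.40 (adjusted p = 0.543 and 0.554). In WT, Ndufa13 went from 2758 to 3733, and the other 4 arrays lay between 3164 and 3494. The difference rests on the WT pair alone, whose 18S signals and scaling factors also differed most between its 2 arrays, and the part of these in the result was not tested. The test of the Smad3KO response against the other 2 called 0 members as well, against 0.381% of all genes, with 2 (2.38%) at an unadjusted p under 0.05, against 8.38% of all genes.

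The levels behind these ratios show where WT stood apart. Taken as each gene's log2 level minus its mean over the 6 arrays, the median of the 84 members was -0.08 in WT without TGF-b and 0.09 with it. It was -0.06 and -0.03 in Smad2KO, and 0.04 and 0.05 in Smad3KO. WT without TGF-b was thus the lowest array and WT with TGF-b the highest, with the Smad3KO arrays both above those of Smad2KO. The same medians over all genes lay between -0.02 and 0.01.

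**Figure D3:**
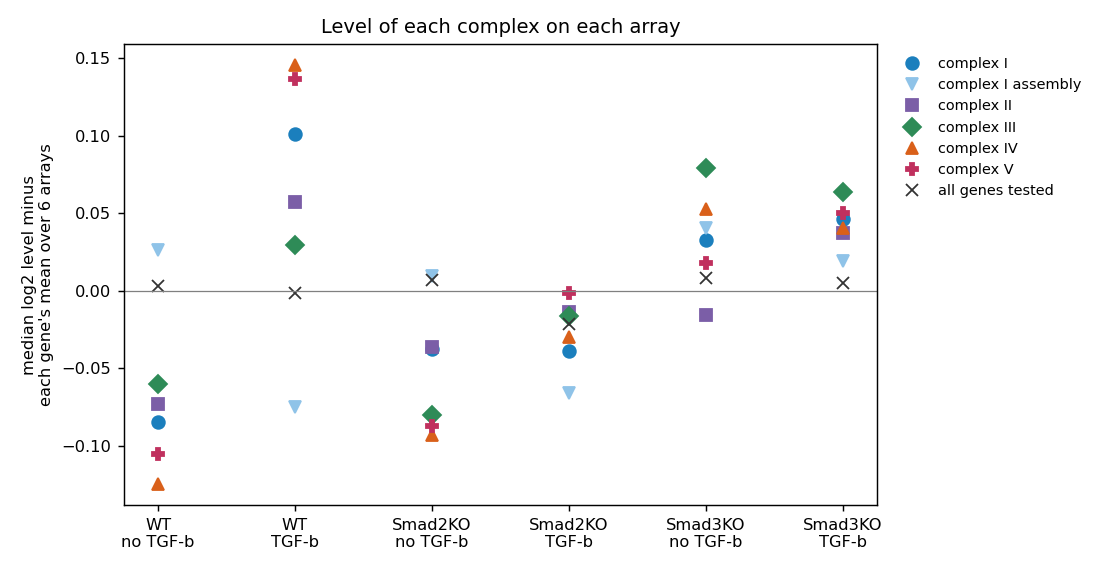
Median over the genes of each complex of log2 level minus the gene's mean over the 6 arrays, for each array, with all 9453 genes tested as crosses. Complexes I, IV and V are lowest in WT without TGF-b and highest in WT with it, and all genes tested stay between -0.02 and 0.01.

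The comparisons of genotypes called single genes. Between Smad2KO and WT, with treatment as a block, 1 of 84 members was called, 1.19% against 1% of all genes. It was Ndufs5, an accessory subunit on the outer face of complex I, which went from 1846 to 2192 in WT, from 1212 to 1308 in Smad2KO and from 1721 to 1934 in Smad3KO. Both Smad2KO arrays lay below the other 4, and the level was lower by 0.68 on the log2 scale than in WT (SE 0.0892, limma adjusted p = 0.00273). Ndufs5 has a pseudogene on the array's annotation, and the probe set shared with it was left out. The median difference of the members was -0.04, against -0.01 for all genes, and 62 of 84 lay below 0. With arrays scaled to the same median it turned to 0.11, where all genes stood at 0.14, so relative to all genes it was -0.03 in both. Such a scaling multiplies each array by a constant and could hardly change that distance. Under quantile normalization that distance was -0.0109.

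Between Smad3KO and WT, limma called 0 members, against 0.465% of all genes, with 3 (3.57%) at an unadjusted p under 0.05, against 11% of all genes. Ndufa3, another accessory subunit of complex I, came nearest. It went from 4161 to 5516 in WT, from 4591 to 4864 in Smad2KO and from 3287 to 3669 in Smad3KO, and both Smad3KO arrays lay below the other 4. The difference from WT was -0.46 (SE 0.0931, limma adjusted p = 0.0649), and 1 member, Ndufa3, passed under quantile normalization. The other bright Ndufa3 probe set was lower in Smad3KO too, at 2538 and 2937 against 3267 to 4199 elsewhere. The members' median difference was 0.04, against 0.01 for all genes.

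More members differed between the 2 knockouts. Smad3KO against Smad2KO gave 3 members higher and 1 lower, 4.76% against 2.68% of all genes (1.54% higher and 1.13% lower), with a median of 0.08 against 0.00355 and 68 of 84 above 0 (81%, against 50.7%). Under quantile normalization 54 were above 0, and the distance of the members' median from that of all genes went from 0.0791 to 0.0330. Besides Ndufs5, higher by 0.53 (SE 0.0892, limma adjusted p = 0.0103), the higher genes were Uqcrfs1 and Ndufc1. Uqcrfs1, the Rieske iron-sulfur protein of complex III, went from 3263 to 3449 in WT, from 2966 to 2955 in Smad2KO and from 3939 to 3990.3 in Smad3KO and was higher by 0.42 (SE 0.0798, limma adjusted p = 0.018). Its 2 Smad3KO arrays were the brightest and its 2 Smad2KO arrays the dimmest of the 6. Ndufc1, a membrane-arm subunit of complex I, went from 2924 to 3133 in WT, from 2483 to 2527 in Smad2KO and from 3212 to 3357 in Smad3KO and was higher by 0.39 (SE 0.0803, limma adjusted p = 0.0274), in the same order of genotypes. With its probe sets averaged Ndufc1 was at 0.34 and not called (limma adjusted p = 0.0652). Ndufa3 was lower by 0.44 (SE 0.0931, limma adjusted p = 0.0284). With arrays scaled to the same median the split was 3 higher and 0 lower. None of the level calls of Ndufs5, Uqcrfs1, Ndufc1 and Ndufa3 held when the filter on low signals was dropped (adjusted p up to 0.222) or when limma ran with neither trend nor robust (up to 0.286).

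The Smad2KO_Smad3het arrays are given on the same scale. Ndufb1 read 553 and 1033 without and with TGF-b, a log2 ratio of 0.90 that stood beside those of WT and Smad3KO. Ndufv3 read 1155 and 1341, Atp5h 4348 and 4769 and Ndufaf4 841 and 401. These 4 went the same way as in the other genotypes. Cox8a went from 1800.3 to 583, and with Cox7c and Ndufaf4 it was one of 3 members at 2-fold or more, 3.57% of the 84 against 11.3% of all genes. The median ratio over members was -0.04, against -0.02 for all genes, with 35 of 84 above 0 (41.7%, against 46.1%). Cox6a2, below the testing level elsewhere, read 1089 and 1003 here, on arrays where most dim probe sets read higher. With these arrays added, limma on all 8 called 0 of 86 members, against 0.518% of 13115 genes, with 11 of the 86 at an unadjusted p under 0.05, as were 1928 of the 13115. Ndufb1 again had the smallest p, at a mean of 0.74 (SE 0.103, limma adjusted p = 0.0675).

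Most other mitochondrial gene lists had WT medians at or below 0. Their calls stand beside 7.16% of all genes called higher with TGF-b and 5.61% called lower, and no list was tested as a set. Genes of the mitochondrial ribosome, which makes the subunits encoded in mitochondria, gave 1 rise and 3 falls among 76 tested, with a median mean response of -0.09 and a WT median of -0.03. The rise was Mrps6, at 0.28 (adjusted p = 0.0292), and the falls included Mrpl45, lower by 0.29 (adjusted p = 0.0234), and Mrpl38, lower by 0.34 (adjusted p = 0.024). Of 30 import genes, which bring nuclear-encoded subunits into mitochondria, 0 rose and 6 fell, 20.0%, against 5.61% of all genes falling. Tomm70a, an import receptor, fell by 0.50 (adjusted p = 0.00873), Timm8b by 0.31 (adjusted p = 0.0183) and Tomm40, the import pore, by 0.26 (adjusted p = 0.0243). The WT median of the import genes was -0.03.

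The next lists also stand beside the 7.16% of all genes that rose and 5.61% that fell. The falls below, 2 of 18 and 2 of 22, were each a larger share than 5.61%, though of few genes. Of 18 tricarboxylic acid cycle genes 0 rose and 2 fell, both parts of the 2-oxoglutarate dehydrogenase complex. Dlst fell by 0.29 (adjusted p = 0.0214) and Ogdh by 0.30 (adjusted p = 0.049). Of 22 genes of mitochondrial transcription and biogenesis 0 rose and 2 fell. These were Tfam, which packages and transcribes mitochondrial DNA, by 0.27 (adjusted p = 0.046), and Tfb1m, a methyltransferase of mitochondrial ribosomal RNA, by 0.33 (adjusted p = 0.0339). Of the 12 coenzyme Q synthesis genes 0 were called, with a median of -0.14.

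The calls of other assembly factors and of carriers stand beside 7.16% of all genes higher and 5.61% lower. In lists of 3 to 10 genes a single call already exceeds these shares. Of 9 additional complex I factors 0 rose and 1 fell, Tmem126a, by 0.59 (adjusted p = 0.000177). Unlike that of the Ndufaf genes, the WT median of these 9 was above 0, at 0.04. Of 3 for ATP synthase 1 fell, Tmem70, by 0.31 (adjusted p = 0.0181). Of 4, 5 and 20 for complexes II, III and IV limma called 0, though the WT median of the 5 for complex III was 0.16. Among 10 carriers and outer membrane channels, which exchange ADP, ATP and phosphate across the membranes, 0 rose and 1 fell. It was Slc25a33, a pyrimidine nucleotide carrier, by 0.46 (adjusted p = 0.00504). The median of the carriers in WT was 0.19, beside the 0.16 of the respiratory chain. Of 8 genes of uncoupling and alternative electron entry 1 rose, Sqor, which feeds electrons from sulfide to coenzyme Q, at 0.70 (adjusted p = 0.0285). Its signals of 75.9 to 149.6 lay not far above the testing level.

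**Figure D4:**
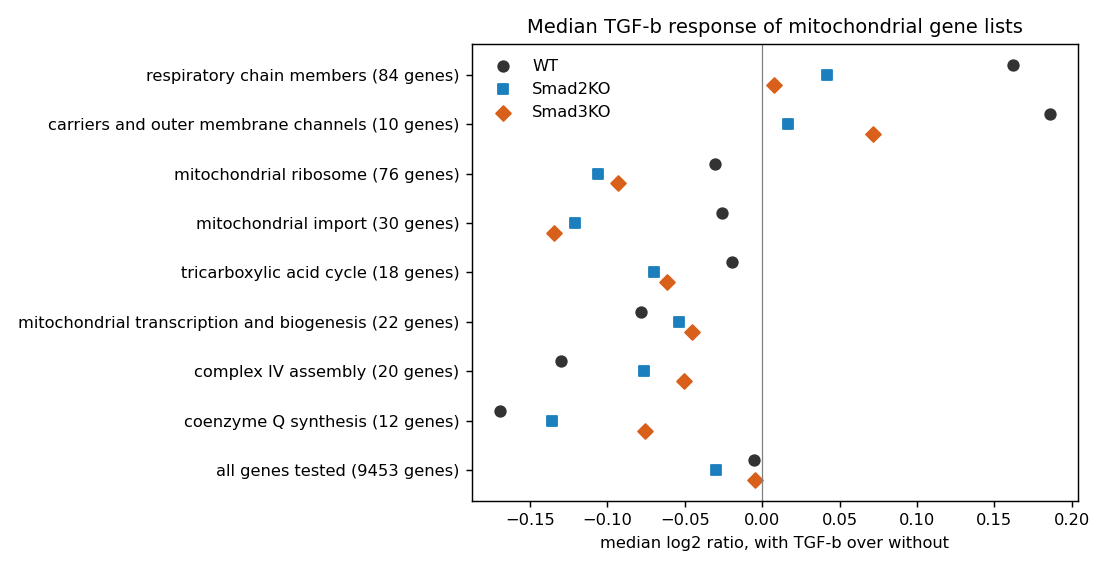
Median log2 ratio of signal with TGF-b over without, by genotype, for the respiratory chain members, 7 other mitochondrial gene lists and all genes tested. In WT the respiratory chain members (0.16) and the carriers (0.19) lie above 0, and the other lists drawn lie at or below -0.02. Not all lists are drawn, and the assembly factors of complex III (0.16) and the additional ones of complex I (0.04) also had WT medians above 0.

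Responses of the members ran partly in parallel between genotypes that share no array. Across the 84 members, WT and Smad2KO ratios correlated at Pearson 0.57 and Spearman 0.42, WT and Smad3KO at 0.46 and 0.295, and Smad2KO and Smad3KO at 0.58 and 0.49. Over all 9453 genes the Pearson values were 0.73, 0.60 and 0.60. Genes are not independent replicates, and the genes of an array share its scaling, so these values describe the arrays. Of the 84, 30 had a ratio above 0 in all 3 genotypes (35.7%) and 9 a ratio below 0 in all 3 (10.7%), against 23% and 26.5% of all genes.

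Where a gene had several probe sets, the signs of their mean responses were compared. Of 78 other bright probe sets, covering 49 members, 22 had a mean response of the opposite sign to the chosen one. They belonged to Atp5a1, Atp5g2, Atp5j2, Atp5k, Atp5o, Atp5pb, Cox5b, Cox6c, Ndufa10, Ndufa12, Ndufa7, Ndufab1, Ndufb5, Ndufs4, Ndufs8, Uqcrb, Uqcrc2 and Uqcrh. In 0 of the 22 did both values exceed 0.2 on the log2 scale. No chosen probe set of these genes exceeded 0.2 (the highest was Atp5g2 at 0.155). That count was therefore fixed by the chosen probe sets and says nothing about the others. None of the 8 called members was among them, of which Ndufb1, Ndufv3, Ndufs5 and Uqcrfs1 had no second probe set. Ndufs5, Uqcrfs1, Ndufc1 and Ndufa3 were called for their level between genotypes, which this comparison of TGF-b responses does not check.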

How the data were processed

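Each of the 8 arrays comes with 45101 linear intensities, 1 per probe set, as deposited by the authors. The submitters' processing notes name GCOS 1.4, Affymetrix software, but no algorithm, background step or scaling. GEO's platform annotation gave 1 symbol to 34945 probe sets, several to 932 (not used) and none to 9160. Of the probe sets that matched the member rule, 10 carried several symbols.

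The 6 WT, Smad2KO and Smad3KO arrays were scaled to the same 2% trimmed mean, signals under their median (32.3) were raised to that floor, and values went to log2. A gene was tested if its highest signal reached 2 times that floor, which left 9453 genes. Tests used limma 3.58.1 in R 4.3.3 (genotype plus treatment, and a further term for response differences, with trend and robust settings), adjusted by Benjamini-Hochberg over all genes tested at 0.05. Residual degrees of freedom were 2, and 1 for response differences. Ratios of 2 single arrays have no test. With 8 arrays the floor was 39.0.

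Members and lists were chosen with earlier results of these data known. Members were named if called (at most 12 a contrast), among the 2 highest or lowest responses of a complex, or as isoforms; those with probe sets of opposite sign are given by name unless named otherwise. Ndufs3, Ndufs7, Ndufs8, Ndufv1, Ndufv2, Ndufa13, Ndufb11, Cox5a, Cox5b, Atp5a1, Atp5b and Atp5md were chosen after their values were seen. Motif spellings were settled after other spellings had been counted. Alternatives were other scalings, floors, filters, probe set rules, limma settings and sets of arrays. Scripts were tested on simulated data. Figures were drawn with matplotlib 3.10.9.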

Additional observations from a re-analysis of the deposited data

How the results depend on the processing

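Over 13 alternative settings the median response of the members stayed above 0 in WT (0.11 to 0.22) and in Smad2KO (0.02 to 0.06), and no called member changed sign. The 4 calls of the mean TGF-b response on 6 arrays became 1 with no filter on low signals, 0 without limma's trend and robust settings, 2 without the WT pair and 2 without the Smad2KO pair. Of the 4 genes, Ndufb1 was called in 12 of 13 settings, Ndufv3 and Atp5h in 10 each and Ndufaf4 in 2. The 1 member called between Smad2KO and WT, and the 4 between Smad3KO and Smad2KO, became 0 with no filter and 0 without trend and robust settings. Between Smad3KO and WT the count of 0 became 1 with quantile normalization, 1 with a floor at the 25th percentile, 1 without the Smad2KO pair, and 2 with arrays scaled to the same median. That last scaling moved the median of all genes between Smad2KO and WT from -0.01 to 0.14 and between Smad3KO and WT from 0.01 to 0.18, and the members' medians to 0.11 and 0.21. Quantile normalization lowered the members' median between Smad3KO and Smad2KO from 0.0826 to 0.0474. On 8 arrays the count of 0 became 1 with arrays scaled to the same median, a floor at the 25th percentile, no floor other than 1, or a filter on mean signal. The causes of these changes were not tested. Contrasts that need a left-out pair, and response differences on 4 arrays, could not be computed. The TGF-b test pairs the arrays of a genotype; no fit with a replicate block could be made, since the labels give no replicate numbers. Precision is limited by having 6 or 8 arrays.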
